A study of Homo sapiens with 12 samples.

Results

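HMOX1 and 9 other genes of heme breakdown and iron handling (HMOX2, BLVRA, BLVRB, FTH1, FTL, SLC40A1, TFRC, SLC48A1 and BACH1) were followed in 2 non-small cell lung cancer (NSCLC) cell lines treated with ISP-I. They were taken by gene symbol, each symbol matched a single gene, and together they were 10 of 19973 genes. H460 (from a large cell lung carcinoma) and A549 (from a lung adenocarcinoma) are established human lines, both labelled wild type, although the study describes both as homozygous for inactivating mutations of KEAP1. ISP-I, isovalerylspiramycin I, is a macrolide and a component of the antibiotic carrimycin. Cells of each line were either non-treated (control) or kept in 10 µM ISP-I for 48 h, which gave 4 groups of 3 libraries. No vehicle is named for the controls that were sequenced. The study gives its means in general as those of independent experiments but does not say which cultures the libraries of a group came from, so the errors and p values cover the spread between these libraries only. The 10 genes were chosen with their change after ISP-I already known, so their own values are a description and carry no p value.

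Heme oxygenases open the heme ring and release iron, carbon monoxide and biliverdin, and biliverdin reductases turn biliverdin into the antioxidant bilirubin. The released iron is stored in ferritin, a shell of heavy (FTH1) and light (FTL) chains, or leaves the cell through ferroportin (SLC40A1), while iron enters on transferrin through the transferrin receptor (TFRC). HMOX1 is the inducible oxygenase: BACH1 with a small MAF protein holds it down, and heme or oxidative stress lifts that block and lets NRF2 (encoded by NFE2L2), also with a small MAF protein, act on it. Ferritin, ferroportin and the transferrin receptor are further set after transcription by iron regulatory proteins, which bind hairpins in the mRNA called iron-responsive elements. A bound hairpin in the 5′ UTR blocks translation, and bound hairpins in the 3′ UTR of TFRC protect its mRNA.

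These hairpins are shown because they mark a mode of control that an mRNA level does not measure. The annotated UTRs (GENCODE v44 on hg38) were searched on the transcript strand only. The pattern was C, 5 bases, CAGTGN and 5 bases that pair with the first 5 (G with T allowed). Matches were listed only for 4 of the 10 genes, set beforehand: FTH1, FTL, SLC40A1 and TFRC. Capitals mark the loop of 6 bases, with 11 bases before it and 10 after it.
FTH1, 5′ UTR, exon 1 of 4, chr11:61967575-61967601, minus strand: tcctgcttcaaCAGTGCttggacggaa
FTL, 5′ UTR, exon 1 of 4, chr19:48965336-48965362, plus strand: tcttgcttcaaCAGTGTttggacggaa
SLC40A1, 5′ UTR, exon 1 of 8, chr2:189580662-189580688, minus strand: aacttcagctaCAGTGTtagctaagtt
TFRC, 3′ UTR, exon 19 of 19, chr3:196050980-196051006, minus strand: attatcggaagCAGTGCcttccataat
TFRC, the same exon, chr3:196050576-196050602, minus strand: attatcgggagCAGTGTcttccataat
TFRC, the same exon, chr3:196050511-196050537, minus strand: tgtatcggagaCAGTGAtctccatatg
TFRC, the same exon, chr3:196050464-196050490, minus strand: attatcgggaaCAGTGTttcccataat
Such a match lay in 0.101% of 18763 annotated 5′ UTRs and 0.644% of 18780 3′ UTRs, 1 transcript per gene. Matches in the other 6 genes were not listed, so nothing is said of them.

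Values are FPKM: the fragments of a gene per unit of its length and of sequencing depth, which ran from 14225849 to 17874422 reads on genes. Differences are on the log2(FPKM + 1) scale with the standard error (SE) of limma, and a gene was called at over 2-fold and an adjusted p under 0.05. Epithelial keratins KRT8, KRT18 and KRT19 stood above 45 FPKM on average in every group, while EPCAM and CDH1 were under 0.2 FPKM on average in both H460 groups. None of 5 erythroid markers reached 1 FPKM on average in either line (summed level 0.0131 to 1.06 FPKM), and 1 of 5 alveolar type 2 markers did in each line. Among 4 leukocyte markers 1 reached it in H460 (CD14) and 0 in A549 by the mean of the line, among 4 fibroblast markers 2 in H460 and 0 in A549, and among 3 endothelial markers 0 in either. In RNA from whole cultures, fewer cells of a kind and less RNA per cell cannot be told apart. H460 ISP-I library 3 stood apart: its deviations from the other ISP-I libraries went with gene length (r = -0.58 over 6650 genes, higher for short genes), and reads on 82 ribosomal protein genes made up 5.04% of it, against 2.82% and 2.57% in libraries 1 and 2. A549 control library 3 leaned the same way (r = -0.40, 4.87% against 3.93% and 3.63%). What part this has in each result was not tested. Values without these libraries, or with each library's trend with gene length removed, are given beside some of the genes only.

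After ISP-I, HMOX1 was 54.6-fold higher in H460 and 10.4-fold higher in A549 by mean FPKM. BACH1 was also higher in every treated library, by 6.18-fold in H460 and 2.14-fold in A549, and SLC40A1 and SLC48A1 were lower in every treated library of both lines. BLVRA was 3.86-fold lower in H460, and its A549 groups overlapped. FTH1, FTL, BLVRB and TFRC were higher in every treated library of A549, and in H460 their groups overlapped. In H460, 4 of the 10 genes passed the call (2 higher, 2 lower), beside 25.7% of 13423 genes tested (10.5% higher, 15.2% lower). In A549 1 of the 10 did (higher), beside 7.71% of 13705 (4.2% higher, 3.51% lower). Under some processing alternatives the A549 log2 differences of BACH1 (range 0.70 to 1.11) and SLC40A1 (-1.64 to -0.52) also passed 2-fold. In H460 that of SLC40A1 ran from -3.99 to -0.93, so its call was not kept under all of them. The libraries of the groups did not overlap for 6 of the 10 in H460 (2 higher, 4 lower), beside 72.7% of all genes tested (29.6% higher, 43.1% lower). In A549 they did not overlap for 8 of the 10 (6 higher, 2 lower), beside 65.5% (34.8% higher, 30.7% lower). Since the genes were chosen on these contrasts, nothing is read from these counts.

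**Figure D1:**
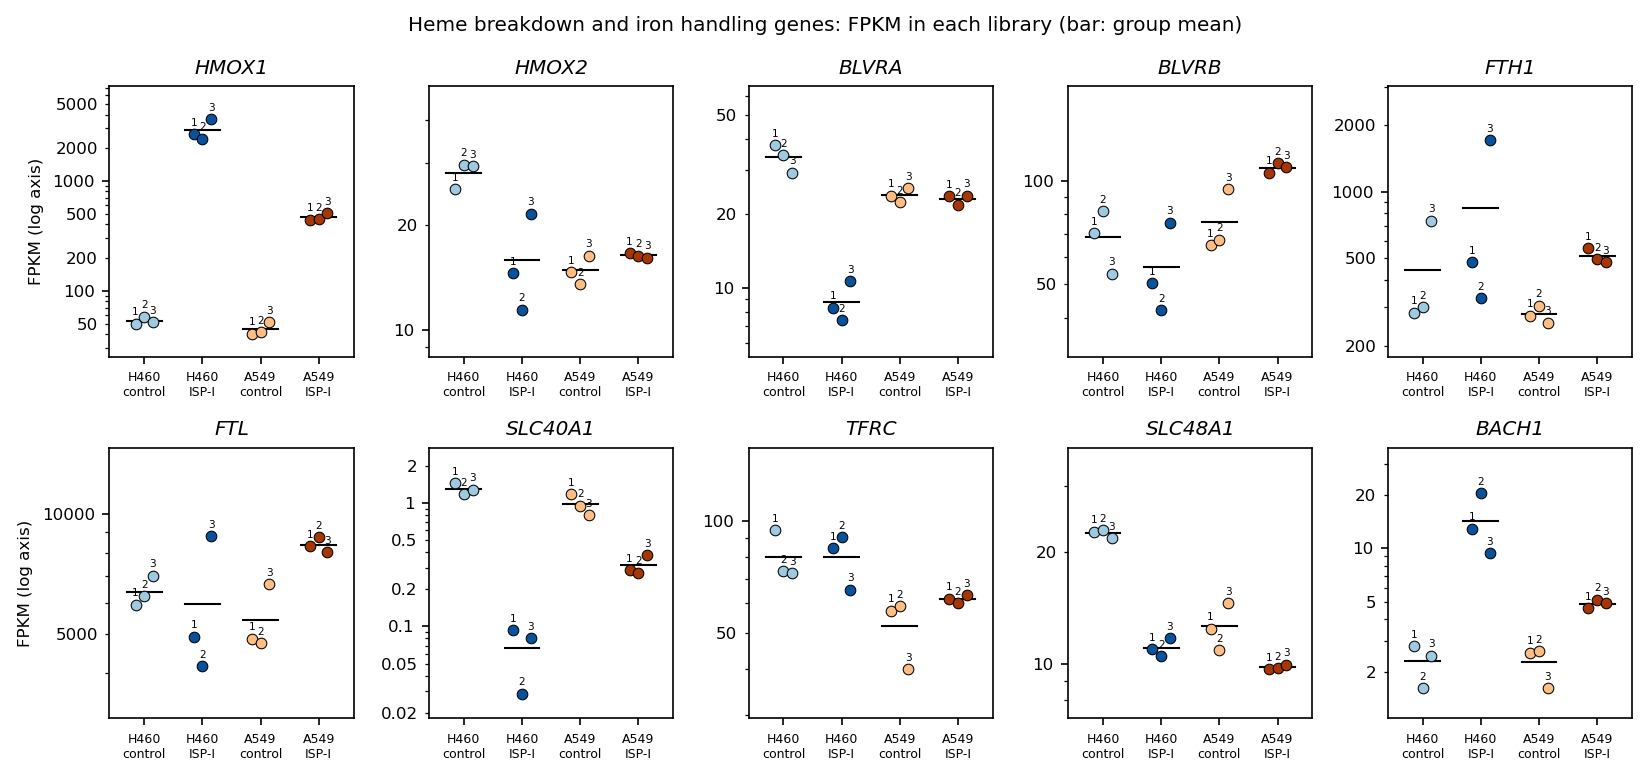
FPKM (log axis) of the 10 genes in each of the 12 libraries, numbered within their group, with a bar at the group mean. HMOX1 separates all 4 groups but the controls, H460 ISP-I library 3 is the highest of its group for FTH1 (1716 FPKM) and FTL (8799 FPKM), and SLC40A1 stays under 2 FPKM everywhere.

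HMOX1 (ENSG00000100292, chr22:35380361-35394214, plus strand) had 49.97, 57.8 and 51.9 FPKM in H460 controls and 2668, 2414 and 3636 FPKM with ISP-I. In A549 it had 40.6, 41.6 and 51.9 FPKM in controls and 442.1, 447.6 and 506.3 FPKM with ISP-I. The untreated lines overlapped, and every treated library of H460 was above every treated library of A549. The log2 difference was 5.72 (SE 0.191) in H460 and 3.36 (SE 0.108) in A549, 2.37 (SE 0.218) more in H460. By mean FPKM HMOX1 moved from rank 770 of 19973 genes to rank 4 in H460, and from rank 861 to rank 45 in A549. Without H460 ISP-I library 3, the highest library, the log2 difference in H460 was 5.55.

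HMOX2, the constitutive heme oxygenase (ENSG00000103415, chr16:4474690-4510347, plus strand), went the other way in H460, with 25.3, 29.7 and 29.4 FPKM in controls and 14.6, 11.5 and 21.5 FPKM with ISP-I. Its H460 groups did not overlap, and library 3 lay nearest to the controls. In A549 it had 14.7, 13.6 and 16.3 FPKM in controls and 16.7, 16.3 and 16.1 FPKM with ISP-I, and the groups overlapped. The log2 difference was -0.83 (SE 0.205) in H460 and 0.14 (SE 0.0787) in A549. Without ISP-I library 3 the H460 value was -1.06, past 2-fold, and over all processing alternatives it ran from -1.06 to -0.55. The ratio of HMOX1 to HMOX2 within a library, both per length, went from 1.89 ± 0.115 (SD, n = 3) to 188 ± 21.2 in H460 and from 3.00 ± 0.208 to 28.4 ± 2.60 in A549. HMOX2 lies opposite to NMRAL1, and whether strand was used in counting is not stated.

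Of the biliverdin reductases, BLVRA acts on the main product of heme oxygenase, and BLVRB is also known as flavin reductase. BLVRA (ENSG00000106605, chr7:43758680-43807342, plus strand) had 37.9, 34.5 and 29.3 FPKM in H460 controls and 8.33, 7.42 and 10.6 FPKM with ISP-I. All treated H460 libraries lay far under their controls, at a log2 difference of -1.84 (SE 0.155). In A549 BLVRA had 23.6, 22.2 and 25.4 FPKM in controls and 23.5, 21.7 and 23.7 FPKM with ISP-I, a log2 difference of -0.04 with a 95% interval from -0.21 to 0.13. The change was 1.80 (SE 0.176) lower in H460 than in A549 (log2 difference of differences -1.80). With H460 ISP-I, HMOX1 stood at 329 times the FPKM of BLVRA, against 1.59 times in controls, and in A549 at 20.3 against 1.88 times.

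BLVRB (ENSG00000090013, chr19:40447765-40465764, minus strand) had 70.5, 81.6 and 53.8 FPKM in H460 controls and 50.4, 42.0 and 75.6 FPKM with ISP-I, and the groups overlapped. In A549 it had 65.1, 67.5 and 94.9 FPKM in controls and 105.7, 112.7 and 109.6 FPKM with ISP-I, higher in every treated library. Its log2 difference was -0.31 (SE 0.234) in H460 and 0.54 (SE 0.135) in A549. BLVRB is short, at 1613 bases, and the H460 value was 0.10 once each library's trend with gene length was removed and -0.55 without ISP-I library 3, so it has no settled direction there.

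Ferritin was among the most abundant mRNAs in every group. FTL (ENSG00000087086, chr19:48965309-48966879, plus strand) ranked 4 of 19973 genes in both controls, 1 in H460 with ISP-I and 2 in A549 with ISP-I. It had 5933, 6220 and 7005 FPKM in H460 controls and 4936, 4171 and 8799 FPKM with ISP-I. Treated libraries 1 and 2 lay under the controls and library 3 above them. In A549 it had 4885, 4758 and 6661 FPKM in controls and 8302, 8724 and 8022 FPKM with ISP-I, with no overlap. The log2 difference was -0.17 (SE 0.343) in H460 and 0.64 (SE 0.170) in A549. The H460 value was 0.36 with the length trend removed and 0.12 after median-of-ratios scaling, in which each library is divided by its median ratio to a reference. Without ISP-I library 3 it was -0.49, and without ISP-I library 2 it was 0.05.

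FTH1 (ENSG00000167996, chr11:61959718-61967634, minus strand), the chain with the ferroxidase activity, had 283.7, 301.7 and 741.9 FPKM in H460 controls and 482.5, 329.5 and 1716 FPKM with ISP-I. Library 3 was far above the others in both H460 groups, by 1.34 and 2.10 on the log2 scale. Among 6650 genes, 2 in the control and 5 in the ISP-I group lay at least as far above, FTH1 counted among them. Genes as far below were not counted. The log2 difference was 0.70 (SE 0.603), which was -0.00 without ISP-I library 3, 1.19 without ISP-I library 2 and 1.15 without control library 3. In A549 FTH1 had 274.9, 305.7 and 256.2 FPKM in controls and 557.8, 496.8 and 482.2 FPKM with ISP-I. All treated A549 libraries were above all controls, at a log2 difference of 0.88 (SE 0.0972). The ratio of FTL to FTH1 spread from 5.13 to 20.9 over the H460 libraries and from 14.9 to 26 over those of A549. In GENCODE v44, 25 pseudogenes are named after FTH1 and 16 after FTL, which could take or give reads, and FTH1 also lies opposite to BEST1, so these levels are uncertain.

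SLC40A1 (ferroportin, the iron exporter; ENSG00000138449, chr2:189560590-189583758, minus strand) was the least expressed of the 10. It had 1.45, 1.19 and 1.29 FPKM in H460 controls (88, 76 and 81 reads) and 0.0928, 0.0285 and 0.0799 FPKM with ISP-I (7, 2 and 5 reads). Its A549 values were 1.18, 0.952 and 0.803 FPKM in controls (71, 59 and 50 reads) and 0.286, 0.272 and 0.380 FPKM with ISP-I (18, 18 and 23 reads). Treated libraries lay under all controls in both lines, and the mean FPKM was 19.5-fold lower in H460 and 3.13-fold lower in A549. The log2 difference was -1.11 (SE 0.0742) and -0.59 (SE 0.0835), drawn toward 0 by the pseudocount of 1. At a pseudocount of 0.1 it was -3.09 and -1.38. Over all processing alternatives it ran from -3.99 to -0.93 in H460, under 2-fold at the upper end.

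TFRC, which brings iron in (ENSG00000072274, chr3:196027183-196082096, minus strand), had 94.9, 73.4 and 72.6 FPKM in H460 controls and 84.8, 90.9 and 65.4 FPKM with ISP-I. The groups overlapped, and the log2 difference was -0.00 with a 95% interval from -0.39 to 0.39. Of the A549 libraries, controls had 57.4, 58.9 and 39.8 FPKM and treated cells 61.8, 60.0 and 63.1 FPKM. Every treated A549 library was above every control, by a log2 difference of 0.26 (SE 0.139), with the lowest control in library 3, and without that library the difference was 0.08. In H460 the TFRC value was 0.29 after median-of-ratios scaling.

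SLC48A1 (HRG1, which carries heme out of the lysosome; ENSG00000211584, chr12:47753916-47782751, plus strand) had 22.7, 22.9 and 21.8 FPKM in H460 controls and 10.9, 10.5 and 11.7 FPKM with ISP-I. In A549 it had 12.4, 10.9 and 14.6 FPKM in controls and 9.68, 9.75 and 9.95 FPKM with ISP-I. It was lower in all treated libraries of both lines, with log2 differences of -0.96 (SE 0.104) and -0.33 (SE 0.101). The H460 value was -1.0 without ISP-I library 3, and ran from -1.02 to -0.69 over all processing alternatives. The treated H460 libraries came down to the level of the A549 controls, with which they overlapped. RAPGEF3 and HDAC7 lie on the opposite strand of its annotated span.

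BACH1, the heme-sensing repressor (ENSG00000156273, chr21:29194071-29630751, plus strand), had 2.81, 1.62 and 2.48 FPKM in H460 controls and 12.9, 20.4 and 9.36 FPKM with ISP-I. In A549 it had 2.59, 2.63 and 1.63 FPKM in controls and 4.59, 5.13 and 4.92 FPKM with ISP-I. Groups did not overlap in either line, so the mRNA of the repressor and that of its target HMOX1 were both higher with ISP-I. The log2 difference was 2.16 (SE 0.258) in H460 and 0.86 (SE 0.131) in A549, 1.3 (SE 0.323) more in H460. BACH1 is long, at 7666 bases, and H460 ISP-I library 3 had the lowest treated value. Over all processing alternatives the log2 difference of BACH1 ran from 1.88 to 2.88 in H460. BACH1-AS1 and GRIK1 lie opposite to parts of its annotated span.

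**Figure D2:**
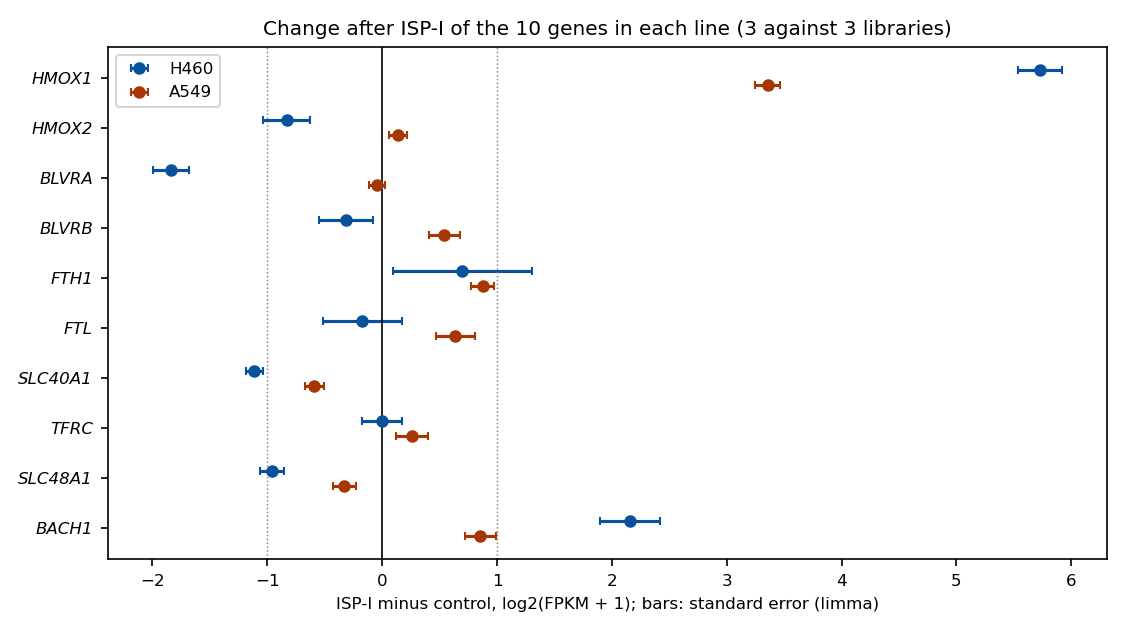
Difference between ISP-I and control on the log2(FPKM + 1) scale for the 10 genes in H460 and A549, with standard errors from limma and dotted lines at 2-fold. HMOX1 (5.72 and 3.36) and BACH1 (2.16 and 0.86) are higher in both lines, and BLVRA is at -1.84 in H460 and -0.04 in A549. The bar of FTH1 in H460 is the longest (0.70, SE 0.603).

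Between the lines, 3 of the 10 genes differed in their change past the call (HMOX1 and BACH1 higher, BLVRA lower in H460), beside 16% of 13953 genes (5.93% higher, 10.1% lower). Over all genes this split was 827 higher and 1407 lower, and 1300 and 827 after median-of-ratios scaling. The 10 genes were chosen with their changes after ISP-I known, so nothing is read from their count. Under some alternatives the difference between the lines also passed 2-fold for SLC40A1 (range -2.33 to -0.25), HMOX2 (-1.20 to -0.61), FTL (-1.13 to -0.12) and BLVRB (-1.09 to -0.27). In untreated cells none of the 10 differed by 2-fold between H460 and A549, in limma on FPKM or on the recovered reads, beside 14.4% of 13532 genes called (5.64% higher, 8.78% lower). The untreated log2 difference (H460 minus A549) was widest for HMOX2, at 0.88 (SE 0.102), and SLC48A1, at 0.79 (SE 0.108), and was 0.25 (SE 0.114) for HMOX1 and 0.01 (SE 0.174) for BACH1. These contrasts share their control libraries. In the study, cell viability at 48 h was more sensitive to ISP-I in H460 than in A549, and both lines were given 10 µM. What part this has in the differences between the lines was not tested.

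The other genes of the pathway were taken from 8 lists of 98 genes, written from general knowledge, of which 88 could be tested in each line with limma and Benjamini-Hochberg adjustment over all genes. In H460, 26 of the 88 were called (29.5%, beside 25.7% of all genes), 6 higher and 20 lower, and their median log2 difference was -0.33 against -0.15 for all genes. After median-of-ratios scaling, which moved the median of all genes to 0.01, the split was 9 higher and 13 lower. In A549, 8 of the 88 were called (9.09%, beside 7.71%), 2 higher and 6 lower, with a median of 0.02 for the lists and for all genes. Both shares were near those of all genes. Most genes tested in each line passed an adjusted p under 0.05 at any fold change. Counts at an unadjusted p, by limma voom on the recovered reads or after scaling are given below per list. They stand without the share of all genes by the same rule, so nothing is read from them about a list.

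**Figure D3:**
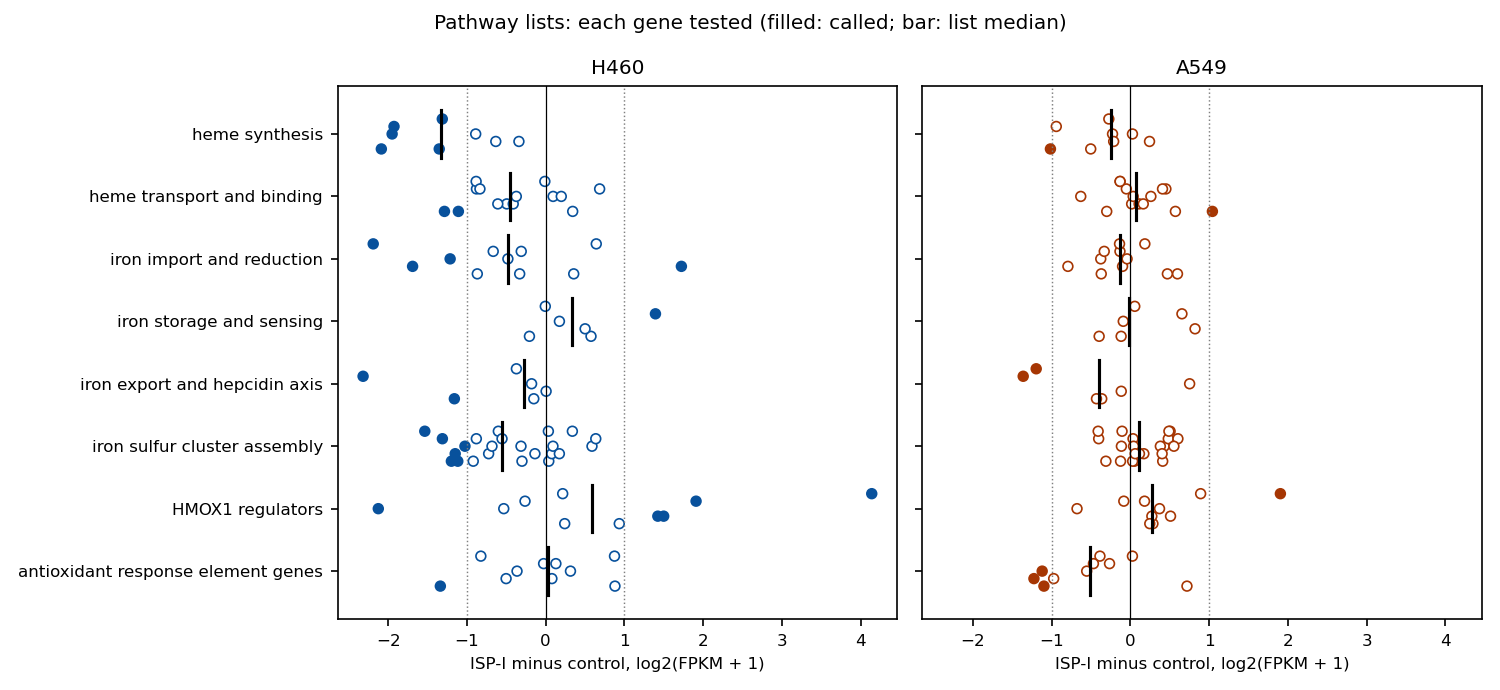
ISP-I minus control on the log2(FPKM + 1) scale for each tested gene of the 8 lists, in H460 (left) and A549 (right), filled where called, with a bar at the list's median and dotted lines at 2-fold. The heme synthesis genes of H460 all lie left of 0, with a median of -1.33, and MAFF, at 4.14, is the point farthest to the right.

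Heme synthesis genes stood lower in H460. All 8 tested enzymes had a negative difference and an adjusted p under 0.05. Most of all genes tested in H460 also passed that adjusted p, at any fold change and in either direction. Of the 8 enzymes 5 were called lower, beside 15.2% of all genes tested, and the median of the 8 was -1.33 against -0.15 for all genes. The same 5 of 8 count was found after median-of-ratios scaling, with a median of -1.10. FECH (ferrochelatase, which puts iron into the ring) fell from 9.45, 9.67 and 9.46 FPKM to 1.77, 1.80 and 1.74 FPKM, a log2 difference of -1.93 (SE 0.1002, adjusted p = 1.28e-06). ALAD, the enzyme that makes porphobilinogen, fell from 6.55, 6.16 and 6.84 FPKM to 0.486, 0.959 and 0.899 FPKM (-2.09, SE 0.132, adjusted p = 3.14e-06). CPOX, which acts in the intermembrane space of mitochondria, fell from 11.5, 9.66 and 9.14 FPKM to 1.90, 1.58 and 2.13 FPKM (-1.95, SE 0.131, adjusted p = 4.14e-06). PPOX (-1.35) was also called, and ALAS1, the first and rate-setting step outside red cells, moved least, by -0.34 (adjusted p = 0.0461). The erythroid form ALAS2 was not tested, at 1 read in all H460 controls together and 7 with ISP-I.

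Of the same 8 enzymes in A549, 1 was called lower by limma and 2 by voom on the recovered reads, with a median of -0.25. The first was ALAD, from 6.08, 6.15 and 6.44 FPKM to 2.57, 2.66 and 2.48 FPKM (-1.02, SE 0.0723, adjusted p = 1.29e-05), which came to just under 2-fold and lost its call without A549 control library 3 or ISP-I library 3. FECH, the other by voom (-1.15, adjusted p = 6.62e-06), had -0.94 (SE 0.0787, adjusted p = 2.99e-05) in limma. Its mean FPKM was 2.20-fold lower, and the pseudocount of 1 drew its limma value under 2-fold (-1.11 at 0.1). CPOX differed between the lines: its change was -1.95 in H460 and -0.23 in A549, a difference of -1.72 (SE 0.149, adjusted p = 1.9e-06).

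**Figure D4:**
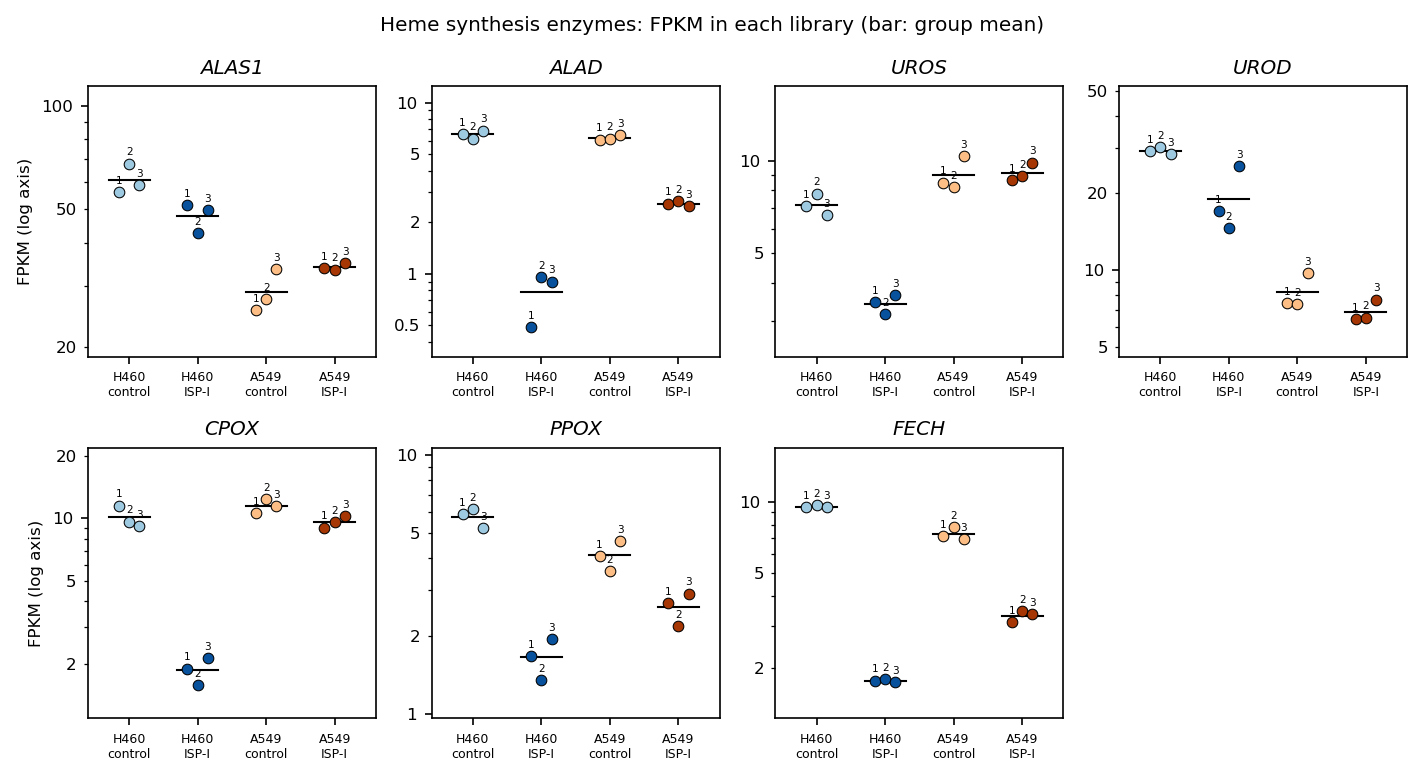
FPKM (log axis) of 7 heme synthesis enzymes in each library, numbered within its group, with a bar at the group mean. In H460 the ISP-I libraries of all 7 lie under every control, beside 43.1% of all genes tested. In A549 those of ALAD, FECH, CPOX and PPOX do so by a smaller distance, beside 30.7%, and ALAS1, UROS and UROD overlap.

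Among 14 genes that carry or bind heme, 2 were called lower in H460 and 1 higher in A549 by limma. Voom called 2 higher and 4 lower in H460 and 2 higher in A549. The higher ones in H460 were FLVCR1, a heme exporter, at 1.02 and HPX, hemopexin, at 1.67. HPX had 4, 5 and 5 reads in H460 controls and 22, 10 and 13 with ISP-I. In A549 it had 9, 4 and 4 reads in controls and 18, 12 and 23 with ISP-I. It passed the voom filter only through its treated libraries in both lines, so its calls are not read. ABCB10, a mitochondrial inner membrane transporter, fell in H460 from 21.99 ± 1.77 to 8.43 ± 0.695 FPKM (mean ± SD, n = 3; log2 difference -1.29, adjusted p = 1.97e-05). HEBP1, a heme-binding protein, fell from 8.87 ± 0.465 to 3.598 ± 0.574 FPKM (-1.11, adjusted p = 7.95e-05), which was -0.86 and under 2-fold after median-of-ratios scaling. SLC25A38, the carrier linked to glycine import for heme synthesis, rose in A549 from 18.6 ± 1.33 to 39.3 ± 1.67 FPKM (1.04, adjusted p = 1.25e-05), and was 0.93 with the length trend removed.

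Iron uptake and reduction genes moved both ways in H460, with 1 of 11 called higher and 3 lower (1 and 5 by voom), and 0 of 11 were called in A549 by limma or by voom (3 higher and 4 lower at an unadjusted p under 0.05). STEAP3, the endosomal ferrireductase that serves the transferrin receptor, fell in H460 from 21.0, 22.3 and 22.2 FPKM to 4.70, 3.59 and 3.77 FPKM (-2.19, SE 0.120, adjusted p = 1.61e-06). In A549 it had 16.1 ± 1.67 FPKM in controls and 14.5 ± 0.450 FPKM with ISP-I. The difference between the lines was -2.05 (SE 0.139, adjusted p = 3.01e-07). MCOLN1, a channel that releases calcium and iron from lysosomes, rose in H460 from 5.43, 6.05 and 5.65 FPKM to 20.6, 18.8 and 24.4 FPKM (1.72, SE 0.126, adjusted p = 6.42e-06). It had 4.02 ± 0.574 and 3.67 ± 0.307 FPKM in A549, a difference between the lines of 1.82 (SE 0.157, adjusted p = 1.85e-06). SLC39A8, a zinc and iron importer, fell in H460 from 18.3 ± 3.15 to 4.94 ± 0.239 FPKM (-1.69, adjusted p = 1.22e-05).

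Of 6 tested iron storage and sensing genes, 1 was called in H460 and 0 in A549 by limma or by voom (2 higher and 1 lower there at an unadjusted p under 0.05). The gene called was NCOA4, the receptor that delivers ferritin to the autophagosome, which rose from 43.96, 41.3 and 38.9 FPKM to 122.1, 124.9 and 87.9 FPKM (1.39, SE 0.159, adjusted p = 8.15e-05). In A549 NCOA4 had 35.2 ± 2.98 and 55.9 ± 2.76 FPKM (0.65, adjusted p = 0.000233), under 2-fold. The iron regulatory proteins that bind the hairpins shown above were not called in either line: ACO1 had 0.58 (adjusted p = 0.00561) in H460 and -0.40 (adjusted p = 0.00256) in A549, and IREB2 had 0.17 (adjusted p = 0.444) and -0.09 (adjusted p = 0.542).

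Of 6 tested genes of iron export and the hepcidin axis, 2 were called lower in each line by limma, and voom called 1 higher and 3 lower in A549. HFE, the hemochromatosis protein that binds the transferrin receptor, fell in both, from 7.93 ± 0.921 to 0.785 ± 0.0756 FPKM in H460 (-2.32, SE 0.118, adjusted p = 1.19e-06) and from 5.89 ± 0.428 to 1.68 ± 0.152 FPKM in A549 (-1.36, SE 0.0852, adjusted p = 7.06e-06). BMP6, a ligand that drives hepcidin in the liver, fell in H460 (-1.16, adjusted p = 2.8e-05) and had -0.91, under 2-fold, after median-of-ratios scaling. NEO1, a coreceptor of that pathway, fell in A549 from 11.8 ± 0.0927 to 4.62 ± 0.623 FPKM (-1.20, adjusted p = 1.84e-05). HAMP, which encodes hepcidin, was too low to be tested in either line.

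In iron-sulfur cluster assembly, 6 of 23 genes were called lower in H460, 2 after median-of-ratios scaling and 3 by voom, which also called 1 higher. In A549 0 of 23 were called by limma or by voom (9 higher and 3 lower at an unadjusted p under 0.05). NFS1, the cysteine desulfurase that supplies the sulfur, fell from 5.50 ± 0.187 to 1.25 ± 0.121 FPKM (-1.54, SE 0.103, adjusted p = 4.12e-06). CIAO2A, of the cytosolic targeting machinery, fell from 32.0 ± 3.24 to 12.5 ± 3.58 FPKM (-1.31, adjusted p = 0.000275). ISCU, the scaffold on which clusters are built, fell from 17.4 ± 1.6 to 7.41 ± 1.85 FPKM (-1.15, adjusted p = 0.000313) and was -0.88 after that scaling.

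The regulators of HMOX1 held the largest change of the lists on the log2(FPKM + 1) scale. In H460 4 of 10 were called higher and 1 lower (5 and 1 by voom), with a median of 0.59. MAFF, a small MAF protein and partner of BACH1 and NRF2, rose from 0.644, 0.774 and 0.634 FPKM to 24.1, 26.1 and 37.5 FPKM (4.14, SE 0.167, adjusted p = 4.38e-07). In A549 it was the only regulator of the 10 called by limma, from 1.22, 1.31 and 1.32 FPKM to 7.69, 6.81 and 8.15 FPKM (1.90, SE 0.0858, adjusted p = 1.54e-06). Its rise was 2.24 (SE 0.192, adjusted p = 1.84e-06) greater in H460. BACH2, a relative of BACH1, was called higher in both lines by voom and at a pseudocount of 0.1. It passed the filters of both fits only through its treated libraries, so no p value is given and these calls are not read. It had 2, 2 and 12 reads in H460 controls and 176, 188 and 116 with ISP-I, and 1, 2 and 1 reads in A549 controls and 35, 34 and 32 with ISP-I. With the pseudocount of 1 its values were 0.93 and 0.28, under 2-fold. MAFK rose in H460 from 28.4 ± 1.35 to 78.7 ± 14.0 FPKM (1.42, adjusted p = 4.8e-05), and MAFG had 0.24 (adjusted p = 0.0841) there.

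NFE2L2, the gene of NRF2, rose in H460 from 11.9, 8.96 and 10.3 FPKM to 39.3, 63.9 and 28.5 FPKM (1.91, SE 0.260, adjusted p = 0.000228), and in A549 the difference was 0.18 (SE 0.166, adjusted p = 0.387). KEAP1, which marks NRF2 for degradation, had -0.26 (adjusted p = 0.115) in H460 and -0.09 (adjusted p = 0.487) in A549. NFE2L1, a related factor, fell in H460 from 61.3, 67.1 and 72.3 FPKM to 15.2, 14.3 and 14.1 FPKM (-2.13, SE 0.114, adjusted p = 1.44e-06). It had 61.0 ± 1.79 and 37.8 ± 1.42 FPKM in A549 (-0.68, adjusted p = 5.17e-05), and the lines differed by -1.45 (SE 0.115, adjusted p = 1.05e-06). HIF1A was the other regulator called higher in H460 (1.499).

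**Figure D5:**
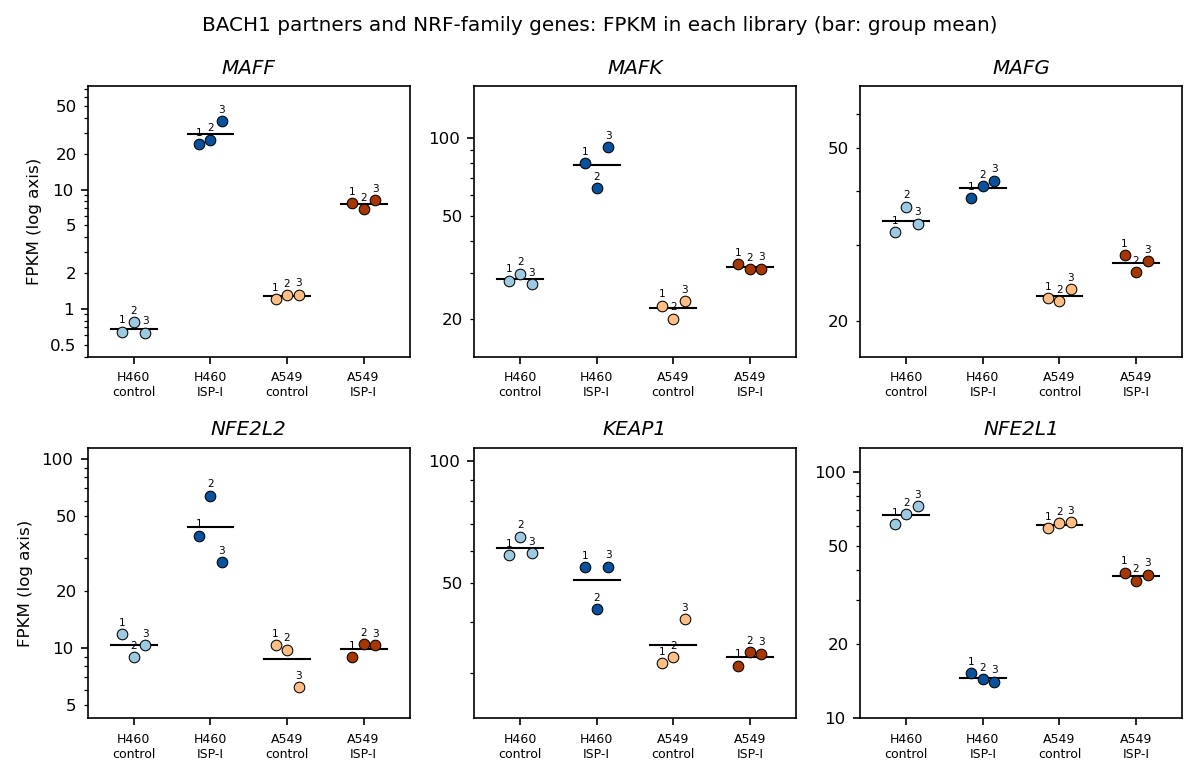
FPKM (log axis) of the small MAF genes MAFF, MAFK and MAFG and of NFE2L2, KEAP1 and NFE2L1 in each library, numbered within its group, with a bar at the group mean. Treated libraries of MAFF, MAFK and MAFG lie above all controls in both lines, and those of NFE2L2 do so in H460. Those of NFE2L1 lie under all controls in both lines, and those of KEAP1 in H460. Among all genes tested, libraries did not overlap for 72.7% in H460 and 65.5% in A549. NFE2L1 is at 14.5 FPKM on average in treated H460 cells against 66.9 FPKM in controls.

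Of 10 other genes with antioxidant response elements, through which NRF2 acts, 0 were called higher and 1 lower in H460 by limma, with a median of 0.03. At an unadjusted p under 0.05, 3 were higher and 3 lower there, and limma voom on recovered reads called 2 higher and 1 lower. In A549 0 were called higher and 3 lower, with a median of -0.51 (1 higher and 8 lower unadjusted, 0 and 4 by voom). PIR (-1.23, SE 0.0791, adjusted p = 8.34e-06) and SLC7A11, the cystine importer (-1.12, SE 0.144, adjusted p = 0.000291), fell in A549. After median-of-ratios scaling 2 of the 10 were called higher in H460, and 1 lower. OSGIN1 was higher in every treated library of both lines, with 0.88 in H460 and 0.72 in A549, under 2-fold in limma. In H460 it was called higher after median-of-ratios scaling (1.17), by voom (1.19) and without ISP-I library 2 (1.02).

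In all, 17 of the 88 listed genes changed differently in the lines past the call (19.3%, beside 16% of all genes), 5 higher and 12 lower in H460 relative to A549. After median-of-ratios scaling the split was 13 higher and 6 lower. STEAP3, NFE2L1, MAFF, MCOLN1 and CPOX, with the smallest p values, kept their call under it. Of untreated cells, 11 of 86 listed genes differed (12.8%, beside 14.4%), 8 higher and 3 lower in H460.

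The genes whose log2(FPKM + 1) was most like that of HMOX1 over the 12 libraries were ARC, IL24, UPP1, GEM and SNX8, among the 6650 genes that averaged 5 FPKM or more. Pearson's r with HMOX1 was 0.999 for ARC, 0.998 for IL24, 0.997 for UPP1, 0.995 for GEM and 0.995 for SNX8. These r values describe 4 group levels more than 12 points. ARC, IL24 and GEM averaged under 5 FPKM in the controls of both lines. They passed that minimum only through their treated libraries, so their r values are not read. IL24, a cytokine of the interleukin-10 family, averaged 0.239 and 115.2 FPKM in H460 and 0.0115 and 16.4 FPKM in A549, control and ISP-I. ARC, an immediate early gene, averaged 0.592 and 121.2 FPKM in H460 and 0.359 and 17.9 FPKM in A549. UPP1, a uridine phosphorylase, averaged 19.8 and 91.2 FPKM in H460 and 17.4 and 44.3 FPKM in A549.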

How the data were processed

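RNA was sequenced as 3 control and 3 ISP-I libraries per line. Per the labels and the study's methods, the authors checked reads with FastQC, used HISAT2 for alignment to hg38 and HTSeq 0.9.1 for counting, and deposited FPKM per gene. The annotation version and the strand setting are not given in the sources used here. Columns name the line and treatment only, so libraries were numbered by their order within a group, and 0 per-sample columns were left unused. FPKM times gene length gave whole reads (within 0.01) for 100% of values in each library. The lines of the table that were pieces of an overlong cell, 4 in all, were left out.

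Genes that averaged 0.1 FPKM or more were compared on log2(FPKM + 1) by limma 3.58.1 in R 4.3.3, its mean-variance trend on, with Benjamini-Hochberg adjustment of p over all of them. The line by treatment interaction was fitted over all 12 libraries. Limma voom on the recovered reads was run beside it and called 5831 of 12939 genes in H460 and 2597 of 13138 in A549. The fit was tested on simulated data. Other alternatives were a pseudocount of 0.1, a minimum of 1 FPKM, no filter, median-of-ratios scaling, 1 fit of all libraries, removal of the length trend (lowess, span 0.3) and leaving out each library. Iron-responsive elements were searched in MANE Select transcripts. Python was 3.11.15.

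The genes and lists were chosen with earlier results of these data known. Named were all 10 genes, up to 3 called genes with the smallest p per list and line, 5 by the interaction, and the 5 most correlated with HMOX1 at 5 FPKM or more. Other genes of the 8 lists that are named (PPOX, ALAS1, ALAS2, ACO1, IREB2, HAMP, MAFG, NFE2L2, KEAP1, HIF1A, OSGIN1, BACH2, FLVCR1, HPX) were chosen after their values were seen. Some genes counted in the lists are not reported here by name.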

Additional observations from a re-analysis of the deposited data

Results flagged for a closer look

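For 5 of the listed pathway genes the change after ISP-I differed between the lines by the limma interaction term, and they had the smallest p values among the listed genes called by it. STEAP3 had -2.19 in H460 and -0.14 in A549, a difference of -2.05 on the log2 scale (SE 0.139, adjusted p = 3.01e-07). NFE2L1 was at -2.13 and -0.68, a difference of -1.45 (SE 0.115, adjusted p = 1.05e-06). MAFF was at 4.14 and 1.90, a difference of 2.24 (SE 0.192, adjusted p = 1.84e-06). MCOLN1 was at 1.72 and -0.10, a difference of 1.82 (SE 0.157, adjusted p = 1.85e-06). CPOX was at -1.95 and -0.23, a difference of -1.72 (SE 0.149, adjusted p = 1.9e-06).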

How the results depend on the processing

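No paired analysis was possible because the columns carry no replicate number of the labels. Calls at an adjusted p under 0.05 at any fold change, chosen after seeing the data, numbered 9287 in H460, 7887 in A549, 7437 for the interaction and 8145 between untreated lines, against 3456, 1056, 2234 and 1951. A pseudocount of 0.1 gave 5786, 2398, 4239 and 3614, and voom on recovered reads 5831, 2597, 4023 and 3765. Without 1 library at a time the ranges were 3292 to 3752, 1042 to 1096, 2035 to 2647 and 1923 to 2069. The listed genes called were 63 in H460 and 53 in A549 at any fold change, 14 in A549 at a pseudocount of 0.1, 14 in A549 by voom, and without 1 library 25 to 30 in H460 and 7 to 9 in A549.

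The log2 difference of HMOX1 in H460 was 6.01 after median-of-ratios scaling, 6.04 by voom and 6.02 with the length trend removed (a step added after seeing the data), and 5.55 to 5.85 without 1 library. In A549 it was 3.29 to 3.47 without 1 library. Under some alternative the sign changed for TFRC, FTL, BLVRB and FTH1 in H460 and for BLVRA in A549, each with a difference within 2 SE of 0 before. Of 31 named list results, 5 lost the call under some alternative (HEBP1, BMP6 and ISCU in H460, ALAD and SLC25A38 in A549) and 0 were reversed. Depth limits SLC40A1 most, with 2 to 88 reads in a library.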
